A study of Bos taurus with 18 samples.

Results

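The BMP4 signalling and ID genes described here are 10 genes of the bone morphogenetic protein (BMP) pathway, chosen by name and found as rows among the 21668 genes of the deposited table: the ligands BMP4 and BMP2, the receptors BMPR1A and BMPR2, the signal carriers SMAD1 and SMAD5, the inhibitor SMAD6, and the ID genes ID1, ID2 and ID3. All 10 had reads in at least 3 libraries and were tested. The study asked when the genome of the bovine embryo becomes active, and it sequenced RNA from 18 libraries, 3 at each of 6 stages. The oocyte libraries came from German Simmental oocytes stripped of their cumulus cells, either immature at the germinal vesicle (GV) stage or at metaphase II (MII) after maturation in vitro. The embryo libraries covered blastocysts and cleavage embryos with 4, 8 or 16 cells, labelled German Simmental x Brahman, that were made by fertilization and culture in vitro. Every library was made from a pool of 10 oocytes or embryos. Breed therefore changed together with stage between MII oocytes and 4-cell embryos, and the 2 cannot be told apart there. The same holds for blastocysts against GV oocytes and for every other comparison of oocytes with embryos, the test over all stages included. The labels do not say whether the 3 pools of a stage came from separate collections, so p-values measure only the spread between these pools.

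BMP ligands are secreted proteins that bring together type I and type II receptor kinases on the cell surface. The type I receptor then phosphorylates SMAD1 and SMAD5, which join SMAD4, enter the nucleus and bind the control regions of target genes, the ID genes among the best known of them. ID proteins lack a DNA-binding region and hold back the helix-loop-helix factors that they pair with. In mouse embryos ID2 is a marker of cells that take on a trophectoderm fate.

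Levels below are scaled counts, the number of reads of a gene times a factor that puts all libraries on 1 scale, given as mean ± SD (n = 3 libraries per stage). A scaled count is a level relative to the other RNA of a library, not an amount per embryo. The factor is set by the median ratio of genes between libraries, not by total reads. In a pool, fewer cells of a type and less RNA per cell cannot be told apart. Levels are compared only within a gene, because gene lengths of the authors' build were not used here. Differences are those of the mean deposited, log2-like values ± SE from limma. For genes with many reads they lie close to log2 fold changes, while for genes with few reads they come out smaller than the log2 fold change. Libraries held 2438473 to 11971840 reads assigned to genes, and 11970 to 15399 genes with reads. The shallowest was 16-cell replicate 2. The fewest genes were detected in 16-cell replicate 1, which also stood apart from the other 16-cell libraries for several of the 10 genes, as given with each result.

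Of the 10 genes, 8 differed between any of the stages (limma F test, adjusted p under 0.05), against 67% of all 17138 genes tested. BMP2 and SMAD6 did not pass. In oocyte maturation no gene of the 10 passed (limma, 1 gene at an unadjusted p under 0.05, and 0 with limma's voom method on the reads), where 0.712% of all genes did. From MII oocytes to 4-cell embryos again none passed (limma, 3 at an unadjusted p under 0.05, 0 with voom), where 0.794% of all genes did. From 4-cell to 8-cell embryos BMP4 and ID2 rose (8.64% of all genes rose) and SMAD1 fell (4.13% fell). From 8-cell to 16-cell embryos BMPR1A, BMPR2, SMAD1, SMAD5 and ID3 fell and none of the 10 rose, where 16.3% of all genes fell and 14.8% rose. From 16-cell embryos to blastocysts BMPR1A and SMAD1 rose (18.2% of all genes rose), while BMP4, BMPR2, ID2 and ID3 fell (13.1% fell). Between GV oocytes and blastocysts, the ends of the series, ID1 rose (25.6% of all genes rose) and BMPR2, SMAD5 and ID3 fell (20.4% fell). The median difference of the 10 genes was 0.68 at MII, -0.91 at 4 cells, 0.39 at 8 cells and -1.25 at 16 cells, beside 0 for all genes tested at each of these steps. It was -0.21 from 16-cell embryos to blastocysts, beside 0.18 for all genes, and -0.62 from GV oocytes to blastocysts, beside 0.26. With the library medians set equal, the split of all genes that rose and fell moved from 17 and 105 to 22 and 58 at MII, from 1480 and 708 to 1205 and 1016 at 8 cells, and from 3117 and 2250 to 2408 and 2874 in blastocysts against 16-cell embryos. No call of the 10 genes changed its direction under that scaling.

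**Figure D1:**
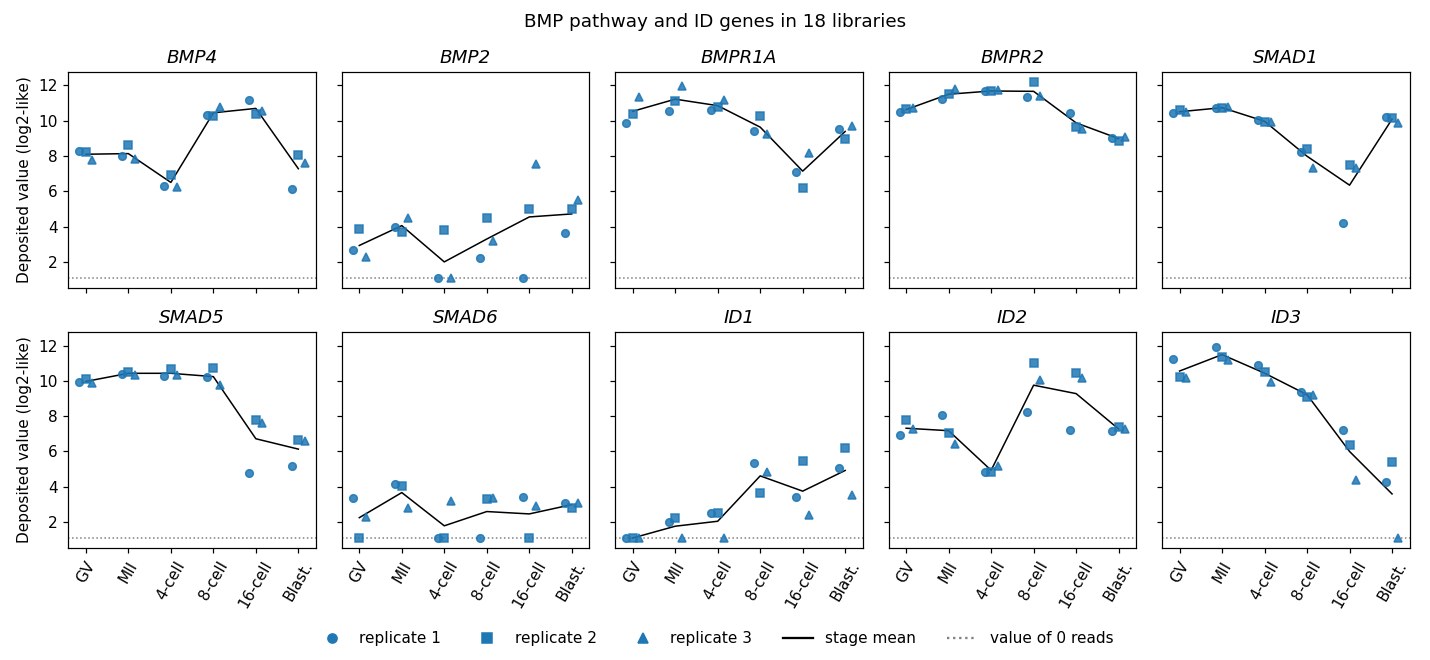
Deposited log2-like values (y axis) of the 10 genes in the 18 libraries by stage (x axis). Each point is 1 library, the line joins stage means and the dotted line is the value of 0 reads. BMP4 and ID2 are high at the 8-cell and 16-cell stages, SMAD1 and BMPR1A have their lowest stage mean at the 16-cell stage, and ID3 has its lowest in blastocysts.

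**Figure D2:**
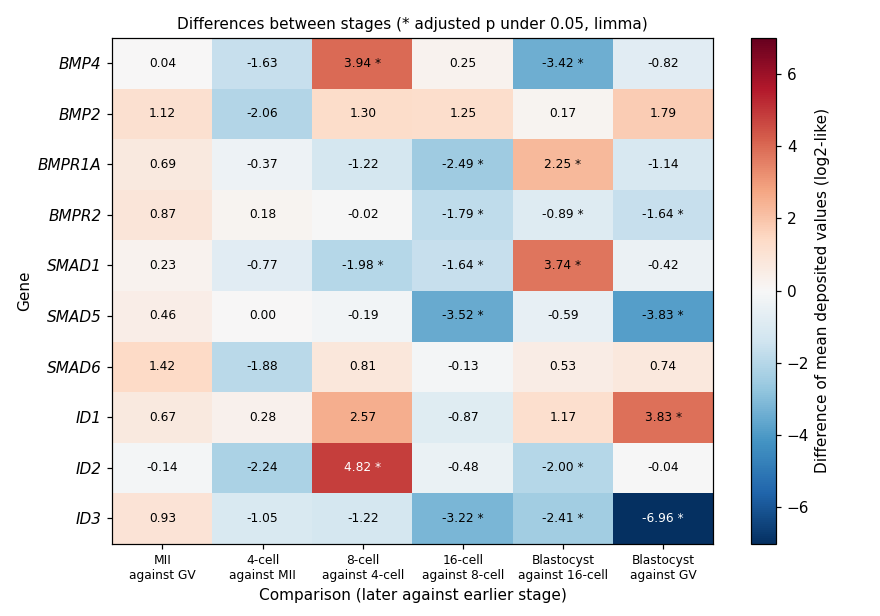
Differences of the mean deposited values between stages for the 10 genes (rows) in 5 consecutive comparisons and in blastocysts against GV oocytes (columns). Colour and number give the later minus the earlier stage and an asterisk marks an adjusted p under 0.05. The largest rise is that of ID2 at the 8-cell stage, 4.82, and the largest fall is that of ID3 between GV oocytes and blastocysts, -6.96.

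BMP4, the ligand that gives the group its name, was high at the 8-cell and 16-cell stages only. Its scaled counts were 334, 317 and 230 in GV oocytes, 269, 413 and 236 in MII oocytes, and 79.5, 128 and 78.3 at 4 cells. They were 1357, 1320 and 1863 at 8 cells, 2467, 1406 and 1614 at 16 cells, and 72.1, 281.5 and 207 in blastocysts. All 6 libraries of 8-cell and 16-cell embryos lay above the other 12. The stage means were 294 ± 55.7 (GV), 306 ± 94.2 (MII), 95.3 ± 28.4 (4-cell), 1513 ± 304 (8-cell), 1829 ± 563 (16-cell) and 187 ± 106 (blastocyst). The rise to the 8-cell stage was 15.9-fold (difference 3.94 ± 0.44, limma adjusted p = 1.7e-06). The fall to the blastocyst was 9.78-fold (difference -3.42 ± 0.44, limma adjusted p = 4.8e-06). Both calls were kept under each of the 15 alternative settings. The 8-cell and 16-cell stages overlapped (limma adjusted p = 0.72). All 3 libraries of 4-cell embryos lay below all 3 of MII oocytes, with a difference of -1.63 ± 0.44 that did not pass (limma adjusted p = 0.1). GV oocytes, MII oocytes and blastocysts were neighbours in the order of levels and overlapped. Blastocysts against GV oocytes gave -0.82 (limma adjusted p = 0.13), and -1.21 without blastocyst replicate 2 (0.041).

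BMP2, a ligand that uses the same receptors, was near the limit of detection at most stages. Its mean was 5.32 ± 5.27 in GV oocytes, 14 ± 4.82 in MII oocytes, 3.63 ± 6.28 at 4 cells, 8.92 ± 9.49 at 8 cells, 75 ± 105 at 16 cells and 27.8 ± 17.3 in blastocysts. These means rest on 18 to 108 reads over the 3 libraries of a stage. The 16-cell mean was set by 1 library: BMP2 had 98 reads in replicate 3 (194.7 scaled counts), 10 in replicate 2 (30.2) and 0 in replicate 1. Neighbouring stages in the order of levels overlapped throughout. The difference of 16-cell from 8-cell embryos was 1.25 ± 1.2 (limma adjusted p = 0.47), and 2.98 without 16-cell replicate 1 (0.035).

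The receptors followed separate courses after genome activation. BMPR1A, a type I receptor that binds BMP2 and BMP4, had scaled counts of 1018, 1405 and 2776 in GV oocytes, 1593, 2400 and 4366 in MII oocytes, and 1664, 1906 and 2447 at 4 cells. It had 721, 1321 and 641 at 8 cells, 143, 72.6 and 302 at 16 cells, and 785, 525.5 and 888 in blastocysts. The 3 libraries of 16-cell embryos were the lowest of all 18. The fall to the 16-cell stage was 5.17-fold, from 894 ± 372 to 173 ± 118 (difference -2.49 ± 0.47, limma adjusted p = 0.00052). The rise to the blastocyst was 4.24-fold, to 733 ± 187 (difference 2.25 ± 0.47, limma adjusted p = 0.001). Both calls were kept under the 15 alternatives, and without 16-cell replicate 3 the folds were 8.29 and 6.8. Blastocysts lay below all GV oocyte libraries without passing (difference -1.14 ± 0.47, limma adjusted p = 0.054). That comparison passed under 8 of 15 alternatives, among them the replicate number as a block (0.028) and the model without GV oocyte replicate 1 (0.031). Under the others the adjusted p reached 0.26. GV oocyte replicate 3, at 2776, was the highest GV library. The lower level in 8-cell than in 4-cell embryos, -1.22 ± 0.47, did not pass (limma adjusted p = 0.1), and did without 8-cell replicate 2 (0.048).

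BMPR2, a type II receptor for BMP ligands, was high up to the 8-cell stage and lower from the 16-cell stage on. Its scaled counts were 1550, 1714 and 1832 in GV oocytes, 2575, 3098 and 3749 in MII oocytes, 3480, 3460 and 3638 at 4 cells and 2801, 5081 and 2951 at 8 cells. They were 1509, 849.5 and 791 at 16 cells and 547, 495 and 580 in blastocysts. All MII libraries lay above all GV libraries, 3141 ± 588 against 1699 ± 142, but the difference of 0.87 ± 0.29 did not pass (limma adjusted p = 0.24). The fall from 3611 ± 1275 in 8-cell to 1050 ± 399 at 16 cells was 3.44-fold (difference -1.79 ± 0.29, limma adjusted p = 0.00013). The further fall to 541 ± 43 in blastocysts was 1.94-fold (difference -0.89 ± 0.29, limma adjusted p = 0.022). It was lost under 5 of 15 alternatives, among them the models without 16-cell replicate 1 (difference -0.6, adjusted p = 0.13) and without blastocyst replicate 2 (0.068). Blastocysts were 3.14-fold below GV oocytes (difference -1.64 ± 0.29, limma adjusted p = 8.9e-05), kept under all 15.

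The ratio of BMPR1A to BMPR2 within a library shows the separate courses without the scaling factor. The ratio also holds the lengths of both genes, so only its changes are read. Its median fell from 0.82 in GV oocytes through 0.775, 0.551 and 0.257 to 0.0949 at 16 cells, and was 1.44 in blastocysts. The blastocyst libraries, at 1.06 to 1.53, did not overlap with the 16-cell libraries, at 0.0854 to 0.382. Replicate 3 was the highest 16-cell library. The GV oocyte libraries, at 0.657 to 1.52, overlapped with the blastocysts.

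SMAD1 and SMAD5 code for closely related proteins that carry the same signal. SMAD1 fell at the 8-cell stage, where SMAD5 did not pass, and rose in blastocysts, where SMAD5 did not pass. SMAD1 had scaled counts of 1472, 1668 and 1539 in GV oocytes, 1805, 1834 and 1847 in MII oocytes and 1137, 1033 and 1045 at 4 cells. It had 321, 353 and 169 at 8 cells, 15.6, 190.5 and 167 at 16 cells, and 1274, 1213 and 1016 in blastocysts. Blastocysts overlapped with 4-cell embryos and lay above all 8-cell and 16-cell libraries. Replicate 1 was the low library of the 16-cell stage, with 13 reads of SMAD1. The rise from 124 ± 94.9 to 1167 ± 135 in blastocysts was 9.41-fold (difference 3.74 ± 0.56, limma adjusted p = 2.9e-05) and was kept under the 15 alternatives.

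The earlier falls of SMAD1 were less stable. From 4-cell (1071 ± 57.2) to 8-cell embryos (281 ± 98.7) the fall was 3.81-fold without overlap (difference -1.98 ± 0.56, limma adjusted p = 0.02). That call was lost without 4-cell replicate 1 (0.068), 4-cell replicate 2 (0.056), 4-cell replicate 3 (0.055) or 8-cell replicate 3 (0.1), with differences of -1.65 to -2.01. From 8-cell to 16-cell embryos SMAD1 fell 2.27-fold with overlapping libraries (difference -1.64 ± 0.56, limma adjusted p = 0.029). Without 16-cell replicate 1 that difference was -0.57 (0.19), and the call was also lost without 8-cell replicate 1 (0.084) or 8-cell replicate 2 (0.1). Array weights (0.064) and only the libraries compared (0.22) lost it too.

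SMAD5 had scaled counts of 1034, 1154 and 1017 in GV oocytes, 1442, 1570 and 1401 in MII oocytes, 1320, 1756 and 1368 at 4 cells and 1269, 1826 and 923 at 8 cells. It had 25.3, 227 and 205 at 16 cells and 35, 101 and 97.4 in blastocysts. Every library up to the 8-cell stage lay above every later one. The fall from 1340 ± 456 to 152 ± 111 at the 16-cell stage was 8.82-fold (difference -3.52 ± 0.56, limma adjusted p = 0.00011). Blastocysts, at 77.8 ± 37.1, were 13.7-fold below GV oocytes (difference -3.83 ± 0.56, limma adjusted p = 1.1e-05). Both calls were kept under the 15 alternatives. Blastocysts and 16-cell embryos overlapped (difference -0.59 ± 0.56, limma adjusted p = 0.47). Without 16-cell replicate 1, the library with the lowest SMAD5, blastocysts were lower by a difference of -1.55 that passed (0.006).

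The SMAD1 to SMAD5 ratio turned over within these stages. Its median was 1.44 in GV oocytes, 1.25 in MII oocytes, 0.764 at 4 cells, 0.193 at 8 cells and 0.816 at 16 cells, and 12 in blastocysts. In the 16-cell libraries the ratio was 0.619, 0.84 and 0.816, so replicate 1, low for both genes, was near the others for their ratio. In blastocysts it was 36.4, 12 and 10.4, above every other library. The mean log2 ratio was higher in blastocysts than in 16-cell embryos by 4.46. The exact two-sided permutation p was 0.1 with libraries as unpaired and 0.25 with libraries paired by replicate number, each the smallest possible with 3 libraries a stage, so neither test could pass.

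**Figure D3:**
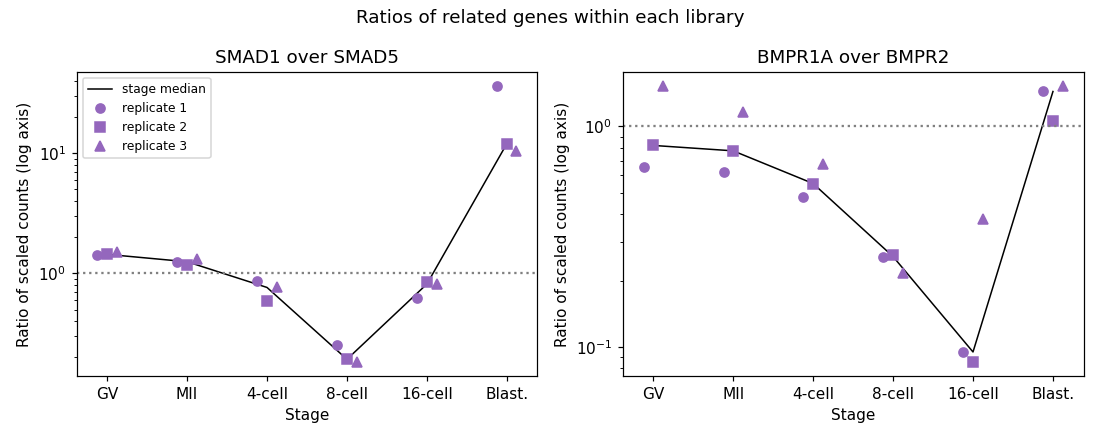
Ratios of scaled counts within each library (y axis, log scale) by stage (x axis) for SMAD1 over SMAD5 and BMPR1A over BMPR2. Points are single libraries, the line joins stage medians and the dotted line marks a ratio of 1. The SMAD1 over SMAD5 ratio is lowest at the 8-cell stage (median 0.193) and the BMPR1A over BMPR2 ratio at the 16-cell stage (median 0.0949), and both are highest in blastocysts (12 and 1.44).

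SMAD6, an inhibitory SMAD that blocks BMP type I receptors and is itself a BMP target, was barely detected. Over the 3 libraries of a stage it had 4 to 39 reads, and 1 or 2 libraries at 0 reads in each of the GV, 4-cell, 8-cell and 16-cell stages. Its highest mean was 10.6 ± 6 in MII oocytes and its lowest 1.86 ± 3.23 at 4 cells. No stage differed for SMAD6 (limma F test, adjusted p = 0.39), and at this depth changes of a few scaled counts were not detectable. In the RefSeq gene table of another assembly, ARS-UCD2.0, SMAD6 overlaps LOC112441475, so its few reads could be shared with it.

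The falls to the 16-cell stage took place together with a fall of the summed level of oocyte markers. The summed level of 9 oocyte markers was 75428 to 103917 in GV oocytes, 36936 to 69349 at 8 cells and 6238 to 13242 at 16 cells. In blastocysts it was 6110 to 6555, of which 97.9% was KIT, a receptor that other cells also make. All 9 had reads at every stage. BMP15 made up 49.9% of the sum at 8 cells and 46% at 16 cells. BMP15 and GDF9, which fell, are also on the list of BMP ligands below. FIGLA did not fall with the sum, with a mean of 27.4 at 8 cells and 49.7 at 16 cells. The part of the oocyte markers in the falls of BMPR1A, BMPR2, SMAD1, SMAD5 and ID3 was not tested. The 15 markers of cumulus and granulosa cells summed to 3096 to 4001 in GV oocytes (STAR in the lead), 3357 to 4561 in MII oocytes (STAR), 2894 to 3749 at 4 cells (HAS2) and 2603 to 4065 at 8 cells (HAS2), so the sums of these stages overlapped. They were 878 to 1785 at 16 cells and 607 to 1408 in blastocysts. LHCGR, FOXL2 and TNFAIP6 were at 0 reads in GV oocytes, and FSHR, AMHR2 and FOXL2 in MII oocytes. In GV oocytes FSHR had 1.02, 2.27 and 101 scaled counts and INHA 0, 6.05 and 97.4, from low to high. The highest GV library thus held most of the reads of both genes. The part of such cells in the levels of the 10 genes was not tested. In blastocysts, where BMPR1A and SMAD1 rose, the sum of 7 trophectoderm markers was 22814 to 53575 against 285 to 437 at 16 cells. In blastocysts KRT8 was in the lead (mean 20972, 55.2% of the sum), KRT18 had 14795 and CDX2 had 154, beside 155 at 8 cells. All 7 had reads at both stages, but at 16 cells CDX2 had 4 reads and ELF5 1, and ELF5 had 9 in blastocysts. The sum of 5 hypoblast markers was 6547 to 9274 against 4628 to 6884, with SOX17 and HNF4A at 0 reads in 16-cell embryos. The 5 inner cell mass markers summed to 6024 to 7791 in blastocysts and 10602 to 20507 at 16 cells, with all 5 detected. Within this list KLF4 had a mean of 8196 at 16 cells and 1621 in blastocysts, DPPA3 5022 and 2399, and NANOG 1646 and 180, while POU5F1 had 505 and 2613 and SOX2 148 and 203. The 5 sperm markers summed to 82.9 to 1094 in blastocysts and 0 to 3.02 at 16 cells, with TNP1 in the lead (mean 429 in blastocysts) and PRM2, ODF1 and AKAP4 at 0 reads in blastocysts. The part of these cell types in the results was not tested.

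The ID genes, the targets most used to read BMP activity, took separate courses. ID1 had 0 reads in all 3 GV oocyte libraries, which allows up to 0.838 scaled counts for counting error. It had 3 reads over the MII libraries and 8 over the 4-cell libraries. Its scaled counts were 39.7, 8.99 and 26.7 at 8 cells, 7.22, 42.3 and 1.99 at 16 cells, and 30.7, 73.9 and 8.29 in blastocysts. Every 8-cell and blastocyst library lay above every oocyte and 4-cell library, and the 3 embryo stages from 8 cells on overlapped. The mean went from 1.61 ± 1.39 in 4-cell to 25.1 ± 15.4 at 8 cells, a difference of 2.57 ± 0.85 that did not pass (limma adjusted p = 0.052). It passed under 6 of 15 alternatives, among them the replicate block (0.037) and without 8-cell replicate 2 (0.027). Blastocysts, at 37.6 ± 33.3, were at least 44.9-fold higher than GV oocytes (difference 3.83 ± 0.85, limma adjusted p = 0.00095), kept under the 15 alternatives. Without blastocyst replicate 2 the bound was 23.3-fold.

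ID2, like BMP4, had its highest levels at the 8-cell and 16-cell stages. Its scaled counts were 124, 230 and 160 in GV oocytes, 277, 137.5 and 88.2 in MII oocytes and 25.9, 26 and 33.6 at 4 cells. They were 312, 2239 and 1109 at 8 cells, 153, 1512 and 1222 at 16 cells, and 147, 176 and 162 in blastocysts. The 4-cell libraries were the lowest 3 of all 18. The 8-cell and 16-cell libraries spread widely, with replicate 1 the lowest of both stages, while the 3 blastocyst libraries lay close together. The rise from 28.5 ± 4.4 to 1220 ± 968 at the 8-cell stage was 42.8-fold (difference 4.82 ± 0.72, limma adjusted p = 6.8e-05), kept under the 15 alternatives, and 24.9-fold without 8-cell replicate 2. From MII oocytes (168 ± 98) to 4-cell embryos the libraries did not overlap, but the difference of -2.24 ± 0.72 did not pass (limma adjusted p = 0.24).

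The fall of ID2 to 162 ± 14.5 in blastocysts from 962 ± 716 at 16 cells was 5.94-fold with overlapping libraries (difference -2 ± 0.72, limma adjusted p = 0.038). It was -3.04 without 16-cell replicate 1 (0.00095). The call was lost without 16-cell replicate 2 (0.18), 16-cell replicate 3 (0.15), or blastocyst replicate 1 (0.086), 2 (0.069) or 3 (0.074), and under 2 other alternatives. GV oocytes, MII oocytes and blastocysts overlapped for ID2, with a difference of -0.04 ± 0.72 between the ends of the series (limma adjusted p = 0.98).

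ID3 was an oocyte transcript that fell nearly to the limit of detection. Its scaled counts were 2624, 1294 and 1220 in GV oocytes, 4185, 2808 and 2445 in MII oocytes and 2005, 1567 and 1028 at 4 cells. They were 701.5, 587 and 613 at 8 cells, 158, 84.7 and 17.9 at 16 cells, and 16.4, 41 and 0 in blastocysts. From the MII stage on, the libraries of each stage lay below all those of the stage before, except that 16-cell embryos and blastocysts overlapped. The fall from 634 ± 60.1 to 86.7 ± 69.9 at the 16-cell stage was 7.31-fold (difference -3.22 ± 0.77, limma adjusted p = 0.0034). Blastocysts, at 19.2 ± 20.7, were 89.2-fold below GV oocytes, at 1713 ± 790 (difference -6.96 ± 0.77, limma adjusted p = 3.2e-07). Both calls were kept under the 15 alternatives. The first fold was 12.4 without 16-cell replicate 1 and the second 209 without blastocyst replicate 2. The step from 16-cell embryos to blastocysts was -2.41 ± 0.77 (limma adjusted p = 0.021) and was lost under 5 of 15. It was -1.16 (0.17) without blastocyst replicate 3, the library with 0 reads, -1.78 (0.11) without 16-cell replicate 1 and -2.21 (0.063) without 16-cell replicate 2.

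Within a library, the ratio of ID2 to ID3 thus rose across genome activation. Its median was 0.131 in GV oocytes, 0.049 in MII oocytes, 0.0166 at 4 cells, 1.81 at 8 cells and 17.9 at 16 cells. The 16-cell libraries ranged from 0.969 in replicate 1 to 68.3 in replicate 3. Blastocysts have no median here, because ID3 had 0 reads in replicate 3.

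Across the 18 libraries the deposited values of BMP4 and ID2 had a Pearson correlation of 0.78 (Spearman 0.66), and both were highest at the 8-cell and 16-cell stages. That of BMP4 was 0.36 with ID1, -0.13 with ID3 and -0.79 with SMAD1. BMPR2 and ID3 had 0.83, as did BMPR2 and SMAD5. These describe 18 libraries of 6 stages that share stage and depth. The 5 genes of all those tested whose values were most like BMP4 were TMEM37 (r = 0.921), UBL5 (0.915), CDK20 (0.908), CYCT (0.903) and PLVAP (0.898). For ID2 they were CDK20 (0.867), RET (0.836), PGLYRP1 (0.827), RTN2 (0.826) and GABARAP (0.821). CDK20 was the gene on both of these lists. For ID1 they were ADIPOR2 (0.9), NRBP2 and MYCN (both 0.871), and GZF1 and MIA (both 0.856). For ID3 they included BCAR4 (0.974), SRPX (0.967), TSPAN7 (0.961) and MOS (0.959), the last a kinase that holds the oocyte in meiosis.

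The other genes of the pathway were taken from lists by role. Of the other BMP ligands, 14 were in the table and 8 had enough reads to be tested. None rose in any comparison. Of all genes, 8.64% rose at 8 cells, 14.8% at 16 cells, 18.2% in blastocysts against 16-cell embryos and 25.6% against GV oocytes. With 8 genes tested, the lack of a rise is not read as a trait of the ligands. Their median difference was -0.87 at 8 cells, -1.59 at 16 cells and 0.22 in blastocysts against 16-cell embryos. At the 16-cell stage 4 of 8 fell (16.3% of all genes fell), among them BMP15, from 24953 to 4951 scaled counts (difference -2.4 ± 0.41, limma adjusted p = 0.0002), and GDF9, from 3493 to 477 (-2.93 ± 0.51, 0.00025). Both are growth factors that the oocyte secretes to its follicle cells. The third, GDF3 (listed as LOC786521), a ligand known to block BMP signals, fell from 67.6 to 2.68 (-3.48 ± 0.73, 0.0012), a call lost with only the libraries compared (0.065). BMP15 fell further to 47.4 in blastocysts (-6.8 ± 0.41, 2.3e-10) and GDF9 to 16.3 (-4.87 ± 0.51, 4e-07), the 2 of 8 that fell there (13.1% of all genes fell). BMP4 was the ligand of the group that rose at the 8-cell stage.

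Of the secreted antagonists and modulators, 15 of 19 in the table were tested, with median differences of 0 at 8 cells, -0.27 at 16 cells and -1.32 in blastocysts. At the 8-cell stage 2 rose and none fell (8.64% and 4.13% of all genes). TWSG1, which binds BMPs together with chordin, rose from 3.87 to 286 scaled counts (difference 5.15 ± 0.9, limma adjusted p = 0.00042). FSTL3, which binds activins and some BMPs, rose from 8 to 68.6 (3.13 ± 0.88, 0.021), a call lost without 4-cell replicate 1 (0.065) or 2 (0.14) or 8-cell replicate 2 (0.05) or 3 (0.081). It was also lost with only the libraries compared (0.076). At the 16-cell stage 2 rose and 2 fell (14.8% and 16.3% of all genes). SOSTDC1, a BMP and WNT antagonist, fell from 520 to 52.4 (-4.83 ± 0.97, 0.00082). The antagonist chordin (CHRD) rose from 24.4 to 133 (3.34 ± 1, 0.015) with overlapping libraries, lost without 8-cell replicate 1 (0.054) or 2 (0.11) or 16-cell replicate 2 (0.056). With only the libraries compared the CHRD call was lost as well (0.11). BMP1, a protease that cleaves chordin, rose from 0 reads to 21.3 (0.017), lost without 16-cell replicate 2 (0.083) or 3 (0.09). In blastocysts CHRD fell to 4.12 (-3.85 ± 1, 0.0053). There 2 of the 15 rose and 2 fell (18.2% and 13.1% of all genes). TLL1, another chordin protease, had 1 read in 16-cell embryos and 26.1 scaled counts in blastocysts (3.16 ± 0.8, 0.0043), a call lost with array weights (0.056). KCP, a chordin-like modulator, had 0 reads and then 20.8 scaled counts, at least 11.5-fold higher (0.0049), and at least 7.22-fold without blastocyst replicate 2.

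Of the other receptors and co-receptors, 9 of 10 were tested, with median differences of 0.53 at 8 cells, -1.14 at 16 cells and -1.8 in blastocysts. ACVR1, a type I receptor, fell from 1437 scaled counts in MII oocytes to 237 at 4 cells (difference -2.61 ± 0.46, limma adjusted p = 0.0043). It rose from 69.9 at 16 cells to 442 in blastocysts (2.73 ± 0.46, 0.0001), as BMPR1A did there. At the 8-cell stage 3 of 9 rose (8.64% of all genes rose). RGMB, a BMP co-receptor, went from 47.6 to 660 (3.87 ± 0.72, 0.0008). BAMBI, a decoy receptor without a kinase that is induced by BMP signals, went from 65.1 to 519 (2.97 ± 0.49, 0.00025). ACVR2A, a type II receptor, rose from 219 to 487 (1.17 ± 0.37, 0.038). This call was lost under 10 of 15 alternatives, among them the models without 4-cell replicate 2 (0.1) or 3 (0.16) or 8-cell replicate 1 (0.055), 2 (0.081) or 3 (0.073).

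At the 16-cell stage 3 of these 9 receptors rose and 2 fell (14.8% and 16.3% of all genes). BAMBI rose again to 1930 scaled counts (difference 1.85 ± 0.49, limma adjusted p = 0.0072, and 0.071 with array weights) and ACVR2A to 1256 (1.36 ± 0.37, 0.0075). BMPR1B, a type I receptor known from ovarian biology, fell from 1161 to 340 (-1.88 ± 0.54, 0.012), lost without 8-cell replicate 2 (0.072) or 16-cell replicate 2 (0.063). In blastocysts 1 rose and 5 fell (18.2% and 13.1% of all genes). BAMBI fell to 149 (-3.69 ± 0.49, 8.8e-06) and BMPR1B to 25 (-3.62 ± 0.54, 3.1e-05). BAMBI thus was highest at the 16-cell stage, while the 8-cell and 16-cell libraries of BMP4 overlapped (limma adjusted p = 0.72). The difference between the courses of BAMBI and BMP4 was not tested.

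Of the SMADs and their partners other than SMAD1, SMAD5 and SMAD6, 14 were tested, with median differences of 0.52 at 8 cells, -0.04 at 16 cells and -0.21 in blastocysts. At the 8-cell stage 2 rose (8.64% of all genes rose): YY1, a zinc finger factor that binds SMADs, from 152 to 660 scaled counts (difference 2 ± 0.43, limma adjusted p = 0.0028), and SKIL, a repressor of SMAD activity, from 3.66 to 116 (4.21 ± 1.01, 0.0071). At the 16-cell stage 2 rose and 2 fell (14.8% and 16.3% of all genes). YY1 rose further to 2303 (1.83 ± 0.43, 0.0029). MAP3K7, the TAK1 kinase of the SMAD-independent branch, rose from 581 to 1342 (1.36 ± 0.41, 0.016), lost under 4 of 15 alternatives, among them those without 8-cell replicate 1 (0.061) or 2 (0.081). PPM1A, a SMAD phosphatase, fell from 2207 to 1128 (-0.93 ± 0.3, 0.024), lost without 8-cell replicate 2 (0.12) or 16-cell replicate 2 (0.056). Array weights (0.2) and only the libraries compared (0.11) also lost it.

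In blastocysts 1 of these 14 rose and 2 fell (18.2% and 13.1% of all genes). TOB1, an antiproliferative protein that binds SMADs, fell from 1035 to 372 scaled counts (difference -1.45 ± 0.34, limma adjusted p = 0.0024). RUNX2, a SMAD partner listed as LOC536911, went from 148 to 5.01 (-3.12 ± 1.03, 0.024), but -1.93 (0.16) without 16-cell replicate 2. It was also lost without blastocyst replicate 1 (0.065) or 3 (0.08) or with only the libraries compared (0.078). SMAD7, the other inhibitory SMAD, went from 10.3 to 65.8 (2.86 ± 0.97, 0.029) with overlapping libraries. That rise was lost without 16-cell replicate 1 (0.16) or 2 (0.068) or blastocyst replicate 2 (0.067) or 3 (0.12). Voom (0.066), array weights (0.073) and only the libraries compared (0.094) lost it too. The shared partner SMAD4 went from 103 in GV oocytes to 459 in blastocysts (2.12, limma adjusted p = 0.0024).

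Of the other genes known as BMP targets, 11 of the 12 listed were tested, with BAMBI and SMAD7 counted here as well, and the median differences were 0.19 at 8 cells, -0.52 at 16 cells and 2.12 in blastocysts. At the 8-cell stage BAMBI and TBX3 rose (8.64% of all genes rose). TBX3, a T-box factor, had 1 read over the 4-cell libraries and 403 scaled counts in 8-cell embryos (difference 7.14 ± 0.64, limma adjusted p = 1.2e-07), and 4124 in blastocysts. At the 16-cell stage 2 rose and 3 fell (14.8% and 16.3% of all genes). MSX1, a homeobox factor, fell from 1397 to 145 (-3.8 ± 0.54, 3.4e-05) and the trophoblast factor GATA2 from 423 to 67.7 (-2.83 ± 0.44, 9.5e-05). ATOH8 had 0 reads in 8-cell embryos and 30.1, 15.1 and 1.99 scaled counts in the 16-cell libraries, from high to low, a mean at least 17-fold higher (2.77 ± 0.51, 0.00044). The bound was 9.24-fold without 16-cell replicate 1, and the call was lost with only the libraries compared (0.074). ATOH8 had reads at no other stage, so it was tested only through the 16-cell libraries, where it is high. Its p-value therefore gives no separate support, and it could be tested under only 11 alternatives. ATOH8 is counted among the 2 that rose, so that count carries the same limit.

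In blastocysts 6 of these 11 targets rose and 3 fell (18.2% and 13.1% of all genes). GATA2 rose 16-fold to 1085 scaled counts (difference 4.19 ± 0.44, limma adjusted p = 4.3e-07), or 27.4-fold without 16-cell replicate 1. GATA3 rose from 145 to 949 (3.92 ± 0.98, 0.0039). The homeobox factor DLX3 had 0 reads in 16-cell embryos and 120 scaled counts in blastocysts, at least 66.7-fold higher (5.65 ± 0.72, 4.5e-06). DLX3 had enough libraries with reads to be tested only through the blastocysts, so its p-value gives no separate support. It is counted among the 6 that rose, so that count carries the same limit. The Notch and BMP target HEY1 fell from 247 to 8.21 (-4.99 ± 0.66, 8.3e-06). GATA2 and GATA3 are also on the list of trophectoderm markers. TCF12, the tested gene among the E proteins that ID proteins bind, went from 309 to 804 (1.52 ± 0.53, limma adjusted p = 0.034). Over all stages TCF12 did not pass the limma F test, nor was its unadjusted p under 0.05. Its call in blastocysts was lost without 16-cell replicate 3 (0.17) or blastocyst replicate 1 (0.1) or 2 (0.066). It was also lost with voom (0.058), equal library medians (0.14) and array weights (0.063).

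**Figure D4:**
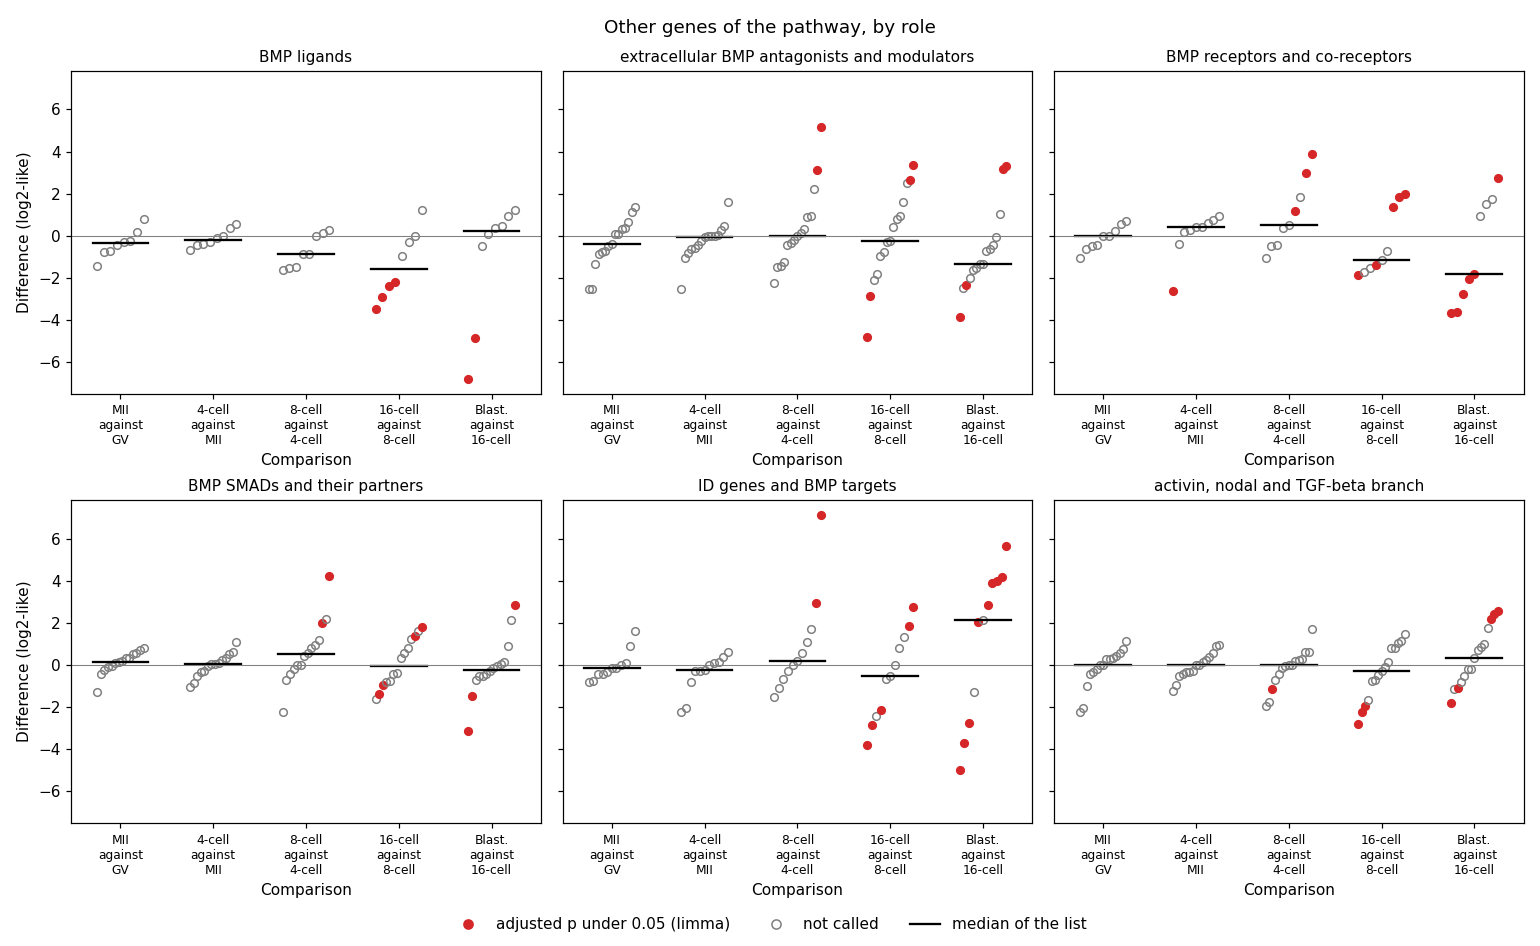
Differences of mean deposited values (y axis, log2-like) of the other tested genes of the pathway in the 5 consecutive comparisons (x axis), 1 panel per role. Each point is a gene, filled where its adjusted p is under 0.05, and the black bar is the median of the list. At the 8-cell stage the filled points lie above 0 in every panel that has any except the activin, nodal and TGF-beta branch, where 1 gene fell.

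In the sister branch of activin, nodal and TGF-beta, which signals through SMAD2 and SMAD3, 15 of 16 genes were tested, with median differences of 0 at 8 cells, -0.28 at 16 cells and 0.32 in blastocysts. None rose and 1 fell at the 8-cell stage (8.64% and 4.13% of all genes), none rose and 3 fell at the 16-cell stage (14.8% and 16.3%), and 3 rose and 2 fell in blastocysts (18.2% and 13.1%). SMAD2 fell at the 16-cell stage from 2159 to 431 scaled counts (difference -2.23 ± 0.36, limma adjusted p = 0.00013), SMAD3 from 461 to 139 (-1.96 ± 0.64, 0.024) and the ligand TGFB2 from 103 to 14.4 (-2.79 ± 0.81, 0.012). The SMAD3 fall was -1.26 (0.14) without 16-cell replicate 3. It was also lost without 8-cell replicate 1 (0.08) or with only the libraries compared (0.067). That of TGFB2 was lost without 16-cell replicate 1 (0.061), with array weights (0.061) or with only the libraries compared (0.12). In blastocysts LEFTY2, a nodal antagonist, had 9.67 scaled counts after 0 reads (at least 5.37-fold higher, 0.00068, and at least 2.85-fold without blastocyst replicate 2). LEFTY2 had enough libraries with reads to be tested only through the blastocysts, so its p-value gives no separate support. It is counted among the 3 that rose there, so that count carries the same limit. FOXH1, a SMAD2 partner, had 9.95 after 0 reads (at least 5.53-fold higher, 0.0053). The type I receptor ACVR1B fell from 670 in 4-cell to 310 at 8 cells (-1.14 ± 0.37, 0.049) and from 299 at 16 cells to 131 in blastocysts (-1.07 ± 0.37, 0.033). Both calls of ACVR1B were lost under 8 of 15 alternatives, with adjusted p of 0.073 to 0.16 at the 8-cell stage (without any 1 of the 4-cell replicates, 8-cell replicate 2 or 8-cell replicate 3). In blastocysts they were 0.055 to 0.16 (without 16-cell replicate 1 or 2 or any 1 of the blastocyst replicates).

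Libraries of the 10 genes did not overlap between the stages compared for 3 genes at MII against GV (17.9% of all genes tested), 4 at 4-cell against MII (17.8%), 6 at 8-cell against 4-cell (25.9%), 4 at 16-cell against 8-cell (31.5%), 4 at blastocyst against 16-cell (37.1%) and 6 at blastocyst against GV (56.9%).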

How the data were processed

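RNA of 18 pools, 3 at each of 6 stages, was amplified with random and poly(A) primers and sequenced as single reads, per the labels' protocols. The authors deposited 1 table of log2-like, variance-stabilised values. The submitters' processing notes name CASAVA 1.6, TopHat2 2.0.3, HTSeq, DESeq and build UMD3.1. Whether counting used strand, and how reads matching several places were treated, is not given in the sources used here.

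The closed form of the transformation turned all 390024 values into whole reads (tolerance 1e-08, 1 read worth 0.602 to 3.02 scaled counts). Reads are amplified copies, not molecules. All 18 columns matched a sample. Stages were compared with limma (version 3.58.1, R 4.3.3), fitted to the deposited log2-like values of all libraries with a variance trend. Tests were two-sided, p-values were Benjamini-Hochberg adjusted over the 17138 genes that had reads in 3 or more libraries, and an adjusted p under 0.05 was called. The procedure was tested on simulated data. Tables and plots used Python 3.11.15, pandas 2.3.3 and matplotlib 3.10.9.

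The genes, lists and tests were chosen with earlier results of these data known. Of 141 listed pathway and marker genes 134 were in the table, 4 of them by locus number, and the other 7 were not analysed here. Each of the 10 genes is named. So are the 3 called genes of smallest p per pathway list and consecutive comparison, and the 5 genes most correlated with BMP4, ID1, ID2 and ID3, of which 1 is not reported here. SMAD4, GATA3 and the markers given singly were chosen after their values were seen and were not recomputed under the alternatives.

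Deviations of same-numbered libraries from their stage means correlated at -0.108 to 0.202, and in 7 of 18 pairs over 0.1. All 3 pairs passed 0.1 in blastocysts against 16-cell embryos only (0.113, 0.134 and 0.108), so there the numbers count as paired. In 15 of 18 pairs, however, the library correlated best with the one of its own number. The 0.1 threshold thus does not show that the numbers are unrelated in the other comparisons. The main model had no replicate term, and the replicate block was fitted as an alternative. The labels give no shared source. The alternatives were other filters, voom, log2 of scaled count + 1, other scalings, array weights, the replicate block, only the libraries compared, and leaving out each library. No sequences or coordinates are given, because no genome or annotation of the authors' build was used here.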

Additional observations from a re-analysis of the deposited data

How the results depend on the processing

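Of 70 results for the 10 genes, 26 were called and 21 of these were kept under every alternative, while 5 lost the call at least once. Of the 44 not called, 13 passed under at least 1, and no called difference reversed. Of 46 named pathway results, 28 were kept under every alternative. With array weights the number of the 10 genes called was 1 at MII against GV (none in the main model), 3 at 4-cell against MII (none) and 5 at 8-cell against 4-cell (3). With only the libraries compared it was 1, 2 and 5 in these comparisons and 3 in blastocysts against 16-cell embryos (6), where voom also gave 3. Leaving out 1 library gave 2 to 5 calls at the 8-cell stage, with 5 without 8-cell replicate 2. With the replicate block there were 4 calls at the 8-cell stage (ID1 added), 5 in blastocysts against GV oocytes (BMPR1A added) and 6 in blastocysts against 16-cell embryos, and the block changed no other call of the 10 genes.

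Counts over all genes moved by over 1.5 times at MII from 122 to 848 (array weights), 558 (only the libraries compared) and 80 (library medians equal), with 19 to 65 without 1 library. At 4 cells they moved from 136 to 1003, 460 and, with library medians equal, 85, with 58 to 99 without 1 library. At 8 cells array weights gave 3352 in place of 2188. At 16 cells array weights gave 3519 and only the libraries compared 2511, in place of 5337. Equal library medians shifted the median of all genes from 0 to 0.31 at MII, 0.12 at 4 cells, -0.24 at 8 cells and -0.12 at 16 cells, and from 0.18 to -0.17 in blastocysts. Depth limits BMP2, SMAD6 and ID1, with 108 reads or fewer per stage for BMP2 and 39 or fewer for SMAD6. The causes of these differences were not tested.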
